A study of Solanum lycopersicum with 6 samples.

Results

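Calcium signalling genes were examined in the exocarp, the outer layer of the tomato fruit. Their members were all genes whose product description named calmodulin, a calcium-dependent protein kinase, calcineurin B, a CBL-interacting protein, calcium binding or an EF hand, the loop that holds the calcium ion. The pattern found 144 of the 21708 genes listed in any library. The study compared fruit in which SlNOR-like1, a transcription factor of the NAC family, was knocked out (nor-like1) with wild-type (WT) fruit. Both genotypes were taken at the stage labelled MG, with no treatment named in the labels, and each had 3 RNA sequencing libraries. The sample labels name no further allele, no cultivar and no number of knockout lines. The authors' own comparison adds a numbered suffix to the mutant name, and the labels do not say whether it marks an allele or a line. Whether the 3 libraries of each genotype are separate plants or fruits is not stated, so a p-value here may reflect technical spread alone.

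Plant cells answer many signals with a brief rise of free calcium in the cytosol, which sensor proteins read. Calmodulins and calmodulin-like proteins (CML) bind calcium and then attach to other proteins. Calcium-dependent protein kinases (CDPK) join the sensor and the kinase in a single protein. Calcineurin B-like proteins (CBL) are sensors that act through a separate family, the CBL-interacting protein kinases (CIPK). Calmodulin-binding proteins, among them transcription factors, enzymes and receptor-like kinases, are the targets of the signal. The members were grouped by the wording of their descriptions, which follows these roles only in part. This gave 23 calmodulins and calmodulin-like genes, 33 genes described as CDPK, 9 calcineurin B-like genes, 43 calmodulin-binding genes and 36 other calcium-binding genes. Genes described as calcium/calmodulin-dependent kinases were counted with those described as CDPK. The other calcium-binding class also holds genes described as CML38 and CML19, whose descriptions do not name calmodulin.

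The libraries held between 8503210 and 11023036 expected counts in nor-like1 and between 11459875 and 17578533 in WT. Every nor-like1 library was thus shallower than every WT library, and 3 counts, taken as the lower limit of detection, equalled between 0.171 and 0.353 CPM, the counts scaled to an equal library size. SlNOR-like1 itself (Solyc07g063420.3) measured 24.5, 16.9 and 18.1 CPM in the nor-like1 libraries 1 to 3, against 130, 114 and 121 CPM in the WT libraries 1 to 3. Its log2 fold change, nor-like1 over WT as in all fold changes here, was -2.61 (standard error, SE, 0.162; edgeR quasi-likelihood adjusted p = 0.000532). On the first principal component of all tested genes, the nor-like1 libraries lay between -51.4 and -31.5, while WT libraries 1 and 2 lay at 59.8 and 51.6 and WT library 3, the nearest to nor-like1, at 20.4. The 6 exocarp markers, genes of cutin and wax formation, were listed in every library, and 2 rose and 2 fell in nor-like1. CER6 and MYB31 rose, with log2 fold changes of 0.85 (adjusted p = 0.00592) and 1.502 (0.0220), and GPAT6 and CYP86A69 fell, with -1.30 (0.0279) and -0.78 (0.0226). Their summed level in FPKM, a level scaled by depth and gene length, was 341 to 382 in nor-like1 and 228 to 302 in WT. Markers of other tissues were present as well, and their part in the results was not tested. Their summed levels were 1361 to 2021 FPKM in nor-like1 against 1892 to 2119 in WT for 31 chlorophyll-binding genes, 146 to 159 against 199 to 218 FPKM for 38 seed-list genes, mostly 2S albumin-domain proteins, 366 to 374 against 407 to 410 FPKM for 34 genes of the phloem list, whose PP2 pattern also takes protein phosphatases, and 23.7 to 29.3 against 17.9 to 19.8 FPKM for the 1 xylem gene. Listed in all 6 libraries were 27 of the 31 chlorophyll-binding, 13 of the 38 seed-list and 23 of the 34 phloem-list genes, and the xylem gene.

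Of the 144 members, 101 had enough counts to be tested, and 15 rose and 1 fell in nor-like1 at a Benjamini-Hochberg adjusted p below 0.05 (edgeR quasi-likelihood). That is 15.8% of the members tested, against 21.9% of all 16380 genes tested, so calls in either direction together were no more frequent than the background. The higher calls made up 14.9% of members and 10.5% of all genes, and the lower call 0.990% of members and 11.4% of all genes. The median log2 fold change was 0.24 over the tested members and -0.01 over all tested genes, and it lay above 0 in 73 of 101 members (72.3%), against 49.5% of all genes. The nor-like1 libraries all lay above the WT libraries in 25 members and all below in 10, together 34.7%, where groups did not overlap in 42.9% of all genes (20.5% above and 22.4% below). Of the called members, 8 differed at least 2-fold. A further 43 members were not tested, and the most abundant of them averaged 0.810 CPM. The low-count filter also bears on the direction, since 9 of the 101 passed its count cutoff in every nor-like1 library but not in every WT library, 3 of the 15 higher members among them, while no member passed in WT alone. These 3 are the genes with the best hits CML8, calcineurin B-like protein 4 and IQM1 (Solyc06g053930.3, Solyc06g051970.3 and Solyc08g062930.3). The same filter was applied to all genes. Of the 16380 genes tested, 714 passed in every library of nor-like1 alone, with 334 of the 1713 higher calls, and 295 in every library of WT alone. Passing in nor-like1 alone was thus more frequent among the members than among all genes. Among the 89 members that passed in every library of both genotypes, 12 were higher, 1 was lower and 76 were not called, with a median log2 fold change of 0.16, and among the 15124 such genes in all, 1379 were higher and 1804 lower, with a median of -0.02. Kinases and other genes matched only by their best protein hit had 4 higher and 5 lower calls. A wider list drawn by description had 5 of each, the lower calls including 1 copper chaperone that is no calcium signalling gene.

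**Figure D1:**
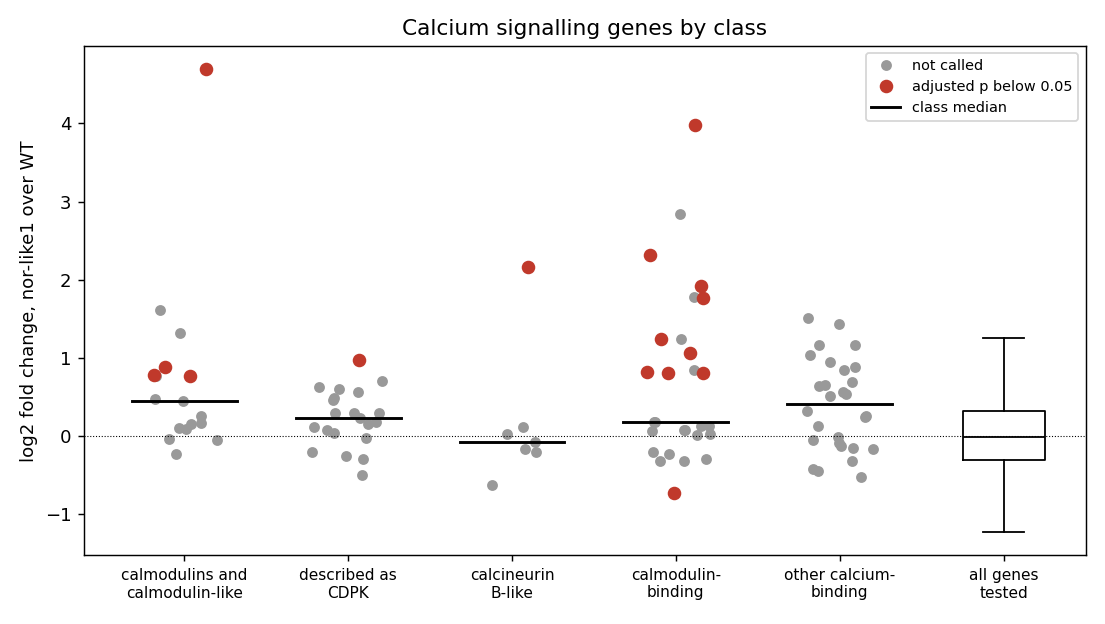
The vertical axis gives the log2 fold change (nor-like1 over WT) of each tested member, 1 point per gene, with the class on the horizontal axis, the class median as a bar and all 16380 tested genes as a box (quartiles, whiskers to 1.5 times the box, outliers not drawn). Red points have an adjusted p below 0.05; 10 of the 16 are calmodulin-binding genes and none is in the other calcium-binding class.

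The number of calls depended on single libraries. Leaving out nor-like1 library 2 or 3 left 7 and 9 higher members, and leaving out WT library 1 or 2 left 10 and 7, whereas 21 were higher without nor-like1 library 1 and 26 without WT library 3. In the same order, the share of all genes called higher was 4.51%, 5.14%, 4.79%, 3.59%, 11.1% and 14.1%. The lower members numbered 0, 0, 1, 0, 3 and 4 in these fits, where 3.99%, 4.8%, 4.27%, 3.27%, 11.4% and 14.4% of all genes were lower. Within nor-like1, library 1 was the lowest of its group in 58 of the 101 tested members (57.4%, all genes 36.8%) and in 11 of the 15 higher ones. Within WT, library 3 was the highest in 52 members (51.5%, all genes 38.6%).

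Among the calmodulins and calmodulin-like genes, 4 of 17 tested members rose and none fell. The median log2 fold change was 0.45, and 0.35 over the 14 that passed the count cutoff in every library of both genotypes. Of these 14, 3 were higher and 0 lower, and of the 15124 such genes in all, 1379 were higher. Over all 17, the share called, 23.5%, was close to the 21.9% of all genes, and the share called higher compares with 10.5%. Calmodulin is a small EF-hand protein that changes shape when calcium binds. The 5 numbered calmodulin genes were all tested, and 2 of them rose.

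Calmodulin 6 (Solyc03g098050.3), which carries the RefSeq symbol CaM6, measured 75.0, 86.8 and 72.0 CPM in nor-like1 and 35.6, 45.9 and 44.8 CPM in WT. Calmodulin 4 (Solyc11g072240.2) measured 51.6, 53.1 and 43.2 CPM in nor-like1 and 26.8, 30.8 and 28.6 CPM in WT. In both genes every nor-like1 library lay above every WT library. The log2 fold changes were 0.89 (SE 0.137, adjusted p = 0.00760) and 0.78 (SE 0.118, adjusted p = 0.00705), and both genes were called in all 16 alternative fits. Calmodulins 3, 4 and 5 share 1 best protein hit. Their transcript sequences were not compared, so the counting may have divided reads between them and the value of each is uncertain. Calmodulin 3 (Solyc10g077010.2) and calmodulin 5 (Solyc12g099990.2) had groups that did not overlap, nor-like1 above, with log2 fold changes of 0.25 and 0.48, and missed the threshold (adjusted p = 0.171 and 0.0668; that of calmodulin 5 was 0.0415 without WT library 3).

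Calmodulin 2 (Solyc10g081170.2), the calcium signalling gene with the highest mean level, at 290 FPKM over the 6 libraries, showed no call. It measured 172, 378 and 295 FPKM in nor-like1, against 164, 189 and 539 FPKM in WT. WT library 3 was the highest of all, and the other WT libraries were near the lowest nor-like1 library. The log2 fold change was -0.05 (SE 0.507, adjusted p = 0.950), and 0.65 without WT library 3 (adjusted p = 0.205). The next most abundant gene of the class, a calmodulin-like protein (Solyc04g018110.1), measured 182, 223 and 244 FPKM in nor-like1 and 194, 140 and 144 FPKM in WT, with overlapping groups (log2 fold change 0.45, SE 0.185, adjusted p = 0.124).

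A calmodulin-like gene of low level (Solyc06g053930.3, best protein hit calmodulin-like protein 8) passed the count cutoff in nor-like1 alone. It measured 1.00, 2.04 and 1.19 CPM in nor-like1, where its 3 libraries held 42 counts together. WT library 1 had none, and the other WT libraries had 0.0885 and 0.0608 CPM, 2 counts in all. These totals give a ratio of 32.2 per count sequenced, with an exact 95% interval of 8.37 to 274 that covers counting error only, and the fitted log2 fold change was 4.70 (SE 0.728, adjusted p = 0.00768). A further gene described as calmodulin, with the best hit CML15 (Solyc01g010020.3), measured 15.7, 25.0 and 22.6 CPM in nor-like1 and 12.6, 12.4 and 12.1 CPM in WT. All nor-like1 libraries were above the narrow WT range, with library 1 closest to it. Its log2 fold change was 0.77 (SE 0.182, adjusted p = 0.0268), but the call was lost without nor-like1 library 2 or 3 (adjusted p = 0.0940 and 0.0885) and without WT library 1 or 2 (0.0799 and 0.0930). The class also holds a calmodulin-lysine N-methyltransferase, an enzyme that modifies calmodulin and is no sensor, which was not called.

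**Figure D2:**
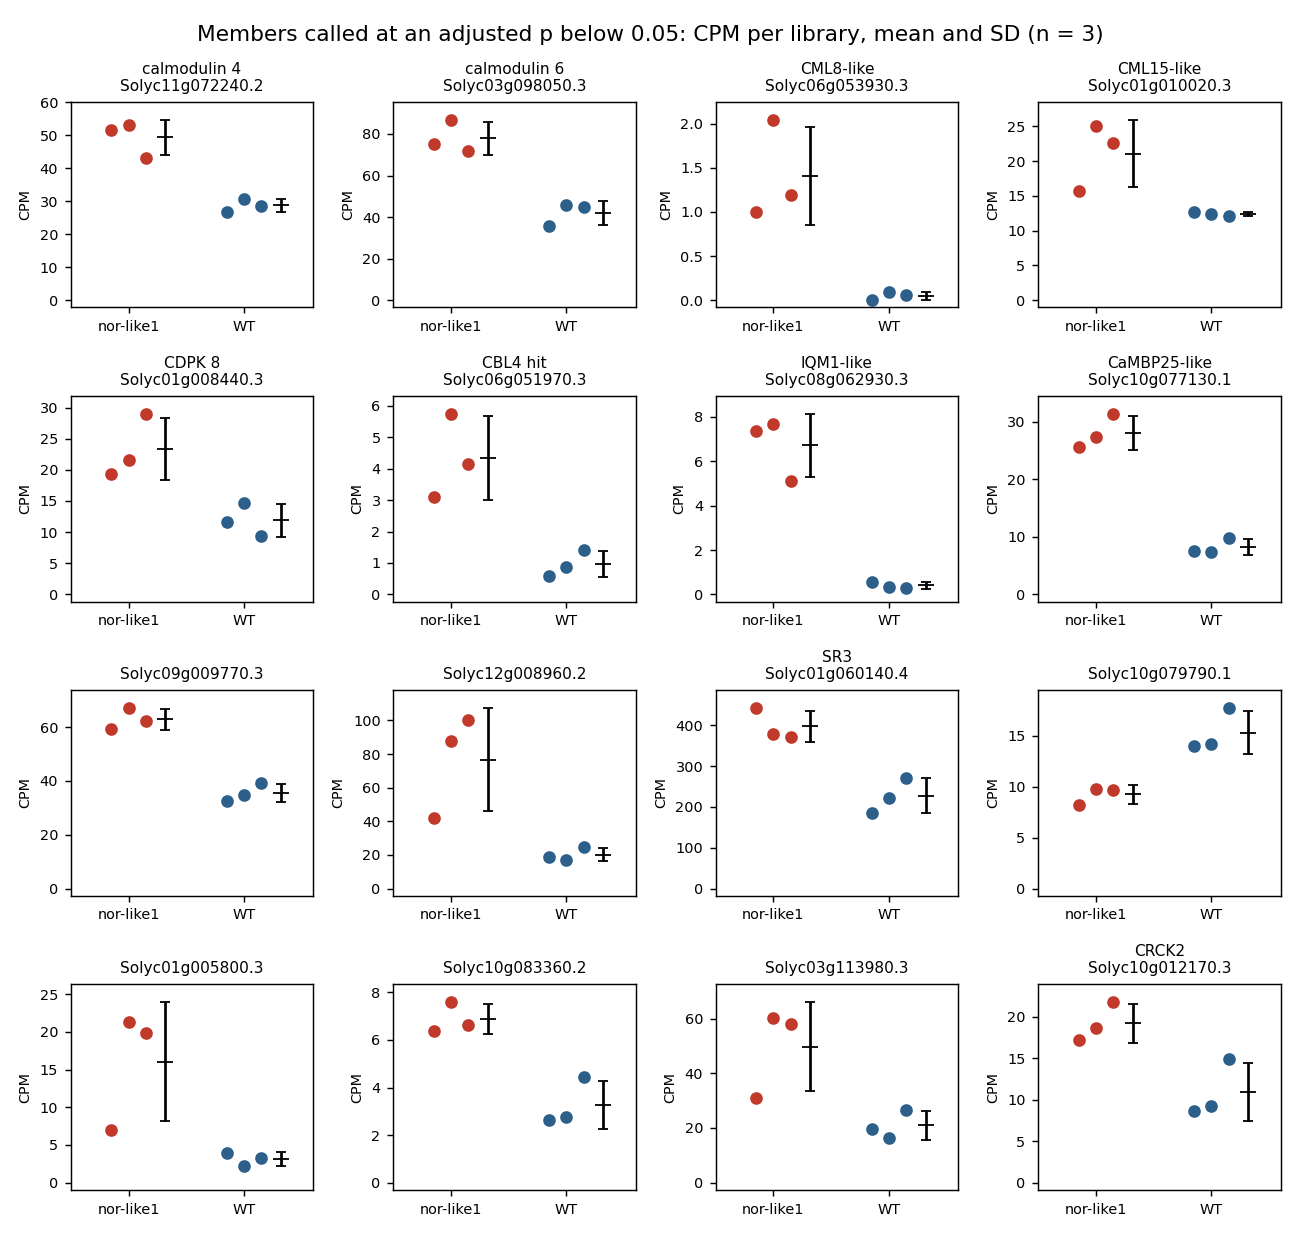
Each panel shows a called member, with CPM per library on the vertical axis (starting just below 0), nor-like1 in red on the left and WT in blue on the right, and the mean with its SD (n = 3 each) beside the points. The groups do not overlap in any panel, and only Solyc10g079790.1 is lower in nor-like1.

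The class of CDPKs, the kinases that sense calcium directly, showed 1 call among the 21 tested of its 33 genes (4.76%, all genes 21.9%). Its median log2 fold change was 0.22, and it includes genes described as calcium/calmodulin-dependent kinases. The description was wider than the kinase family. Of the 33, 21 had a protein kinase as best hit (14 tested, 1 higher, none lower), 8 had a CML or a sorcin, which are calcium-binding proteins with no kinase part (6 tested, none called), and 4 had an uncharacterized protein (1 tested, not called). The gene that rose, with the best hit CDPK 8 (Solyc01g008440.3), measured 19.4, 21.6 and 29.0 CPM in nor-like1, against 11.6, 14.7 and 9.42 CPM in WT. All nor-like1 libraries lay above WT, and the log2 fold change was 0.97 (SE 0.215, adjusted p = 0.0219). The call was lost without nor-like1 library 2 or 3 (adjusted p = 0.0622 and 0.0722) or WT library 1 (0.0727).

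The 2 most abundant genes of this description both had CML36 as best hit, so they are described as kinases but resemble a sensor. Solyc10g079755.1 measured 204, 151 and 190 FPKM in nor-like1 and 176, 145 and 167 FPKM in WT. Solyc10g079420.1 measured 96.6, 137 and 166 FPKM in nor-like1 and 132, 91.2 and 118 FPKM in WT. Their groups overlapped, with log2 fold changes of 0.16 (SE 0.144, adjusted p = 0.454) and 0.23 (SE 0.233, adjusted p = 0.513). The most abundant gene with a kinase as best hit, described as CDPK 4 (Solyc03g026340.4) and named here after its values were seen, had a mean of 89.3 FPKM. Its nor-like1 libraries were all below WT, with a log2 fold change of -0.49 and an adjusted p of 0.0733. DESeq2 called it lower (adjusted p = 0.0430), as did edgeR without WT library 3 (0.0318).

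**Figure D3:**
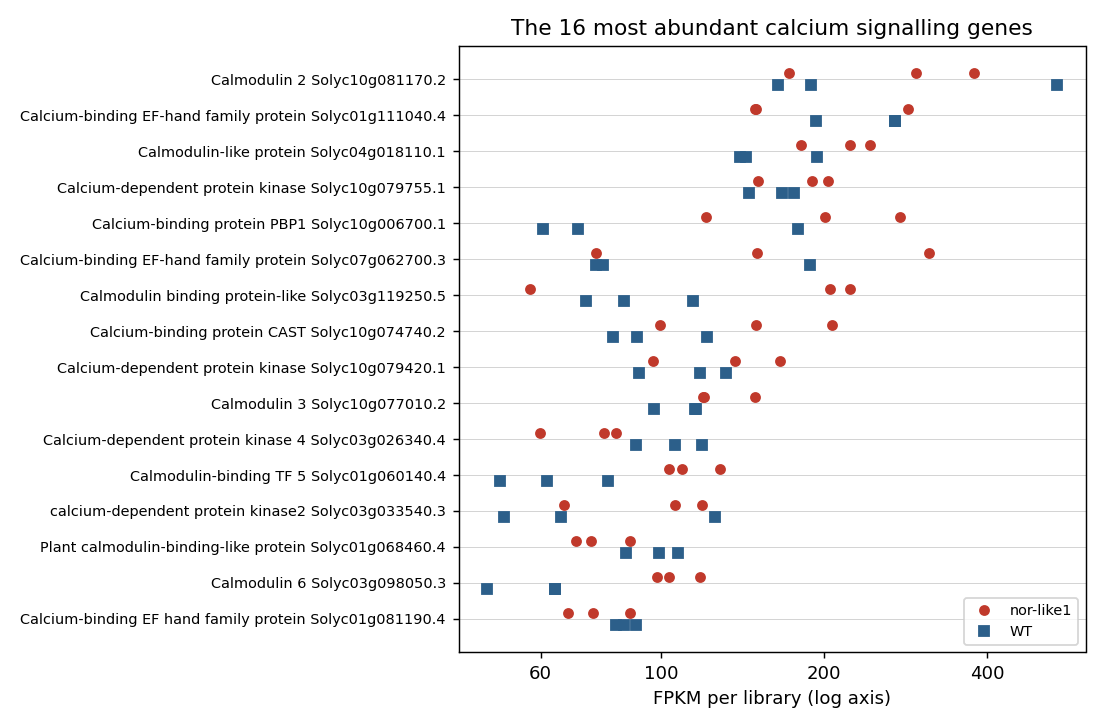
FPKM per library (log axis) is shown for the 16 members with the highest mean FPKM, with the nor-like1 libraries as red circles above the WT libraries as blue squares in each row. Genotypes overlap in most rows; the CAMTA 5 gene and calmodulin 6 are the only 2 of the 16 with a call.

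Of the calcineurin B-like genes, 1 of 7 tested rose and none fell (14.3%, all genes 21.9%), and the median log2 fold change was -0.08. The gene called passed the count cutoff in every library of nor-like1 alone, and none of the 6 that passed in both genotypes was called. The class holds 8 sensors, 6 of them tested, and the kinase SOS2 (Solyc12g009570.3), which in Arabidopsis acts with a CBL in salt tolerance and whose description begins with the same words. The sensor that rose has calcineurin B-like protein 4 as best hit (Solyc06g051970.3), a name that in Arabidopsis belongs to the partner of SOS2. It measured 3.10, 5.74 and 4.16 CPM in nor-like1 and 0.581, 0.885 and 1.40 CPM in WT, with no overlap. The log2 fold change was 2.17 (SE 0.404, adjusted p = 0.0128). Without nor-like1 library 2 its adjusted p was 0.0538 and without WT library 2 it was 0.0585, with a log2 fold change of 1.89 to 2.58 over the 6 fits that left out a library. Its level was the lowest of the tested class, with a mean of 2.56 FPKM.

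The most abundant sensors of the class differed little between the genotypes. The gene with calcineurin B-like protein 3 as best hit (Solyc12g015870.2) measured 29.3, 30.7 and 25.4 FPKM in nor-like1 and 24.9, 26.2 and 28.6 FPKM in WT, and CBL2 (Solyc07g065820.3) 19.9, 18.0 and 15.7 FPKM in nor-like1 and 17.9, 16.4 and 19.3 FPKM in WT. Both had overlapping groups. The log2 fold changes were 0.12 (SE 0.109, adjusted p = 0.458) and 0.02 (SE 0.129, adjusted p = 0.915). SOS2 gave -0.21 (SE 0.145, adjusted p = 0.330).

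CIPKs, the kinases that the CBL sensors activate, mostly fell outside the description pattern, because the files describe most of them as non-specific serine/threonine protein kinases. SOS2 is the exception. A search of the best protein hits with the same pattern added 43 genes, of which 35 were tested, 4 were higher and 5 lower. CIPKs made up 26 of these genes, with 18 tested, 3 higher and 4 lower (38.9%, all genes 21.9%) and a median log2 fold change of -0.08. The kinases named next were chosen after their values were seen.

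CIPK9 (best hit of Solyc05g047600.5) measured 6.11, 8.37 and 7.24 CPM in nor-like1 and 29.5, 26.2 and 18.2 CPM in WT. It was lower in every nor-like1 library, with a log2 fold change of -1.77 (adjusted p = 0.00418, SE 0.218). CIPK1 (Solyc05g053210.5) measured 183, 230 and 229 CPM in nor-like1 and 120, 99.0 and 121 CPM in WT, with a log2 fold change of 0.92 (adjusted p = 0.00741, SE 0.140). Both calls held without any 1 library, with adjusted p up to 0.0255 and 0.0381. CIPK11 (Solyc06g082440.1) also rose, with a log2 fold change of 1.79 (adjusted p = 0.0214) and nor-like1 libraries at 61.3, 152 and 109 CPM against 29.5, 23.5 and 40.0 CPM in WT. CIPK8 (Solyc04g076810.4) rose by 0.42 on the log2 scale (adjusted p = 0.0417). The other lower kinases had CIPK2-like (Solyc06g007430.3, -1.08), CIPK25-like (Solyc06g068450.3, -1.003) and CIPK12-like (Solyc02g072530.3, -0.47) as best hits, with adjusted p of 0.0148, 0.0391 and 0.0391. These 5 calls were lost in some fits that left out 1 library, with adjusted p of at most 0.0822 for CIPK11, 0.144 for CIPK8, 0.0611 for CIPK2-like, 0.125 for CIPK25-like and 0.131 for CIPK12-like. Another gene with CIPK1 as best hit (Solyc12g098910.2) was not called, with a log2 fold change of 0.46 (edgeR adjusted p = 0.638). Nor was a CIPK11-like gene (Solyc06g007440.4), with -0.20 (0.888).

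**Figure D4:**
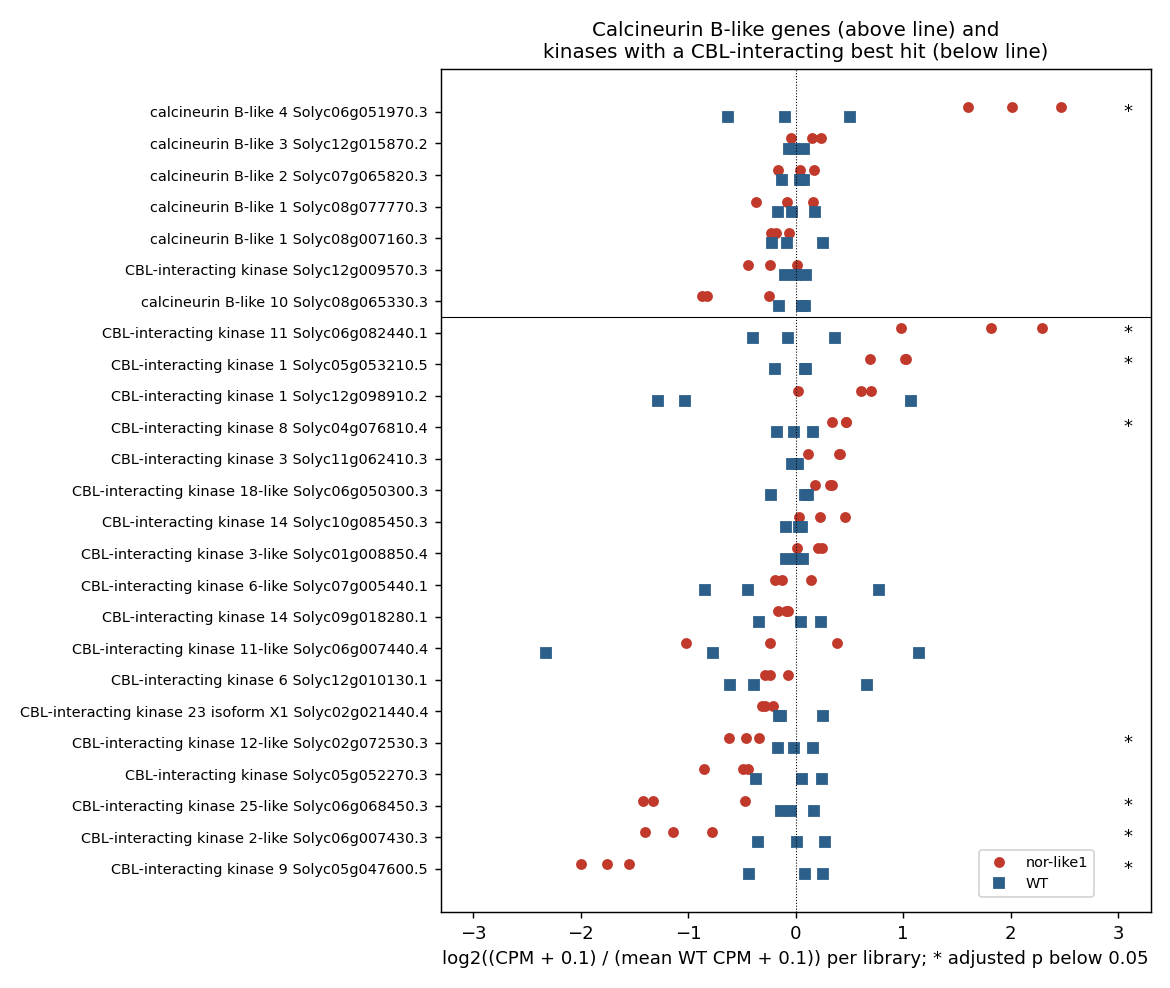
Each row is a tested calcineurin B-like gene (above the line, SOS2 included as a CBL-interacting kinase) or a kinase with a CIPK best hit (below the line). The horizontal axis is the log2 ratio of a library's CPM, plus 0.1, to the WT mean CPM, plus 0.1, with nor-like1 as red circles above WT as blue squares and a star for an adjusted p below 0.05. Solyc06g051970.3 is the starred sensor, and starred kinases lie on both sides of 0.

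Calmodulin-binding genes, the targets of calmodulin, held 10 of the 16 calls. Of 28 tested, 9 rose and 1 fell, 35.7% against 21.9% of all genes, and the higher calls were 32.1% against 10.5%. The groups did not overlap in 14 of the 28, 11 with nor-like1 above and 3 below, and in 42.9% of all genes. The median log2 fold change was 0.18, and 0.13 over the 25 that passed the count cutoff in every library of both genotypes. Of these 25, 8 were higher, 1 was lower and 16 were not called. Of the 15124 such genes in all, 1379 were higher and 1804 lower. Without this class the members had 6 higher and 0 lower calls among 73 tested, a share of 8.22% that lies below the background for higher calls (10.5%) and for all calls (21.9%). Of these 6, Solyc06g053930.3 and Solyc06g051970.3 passed the count cutoff in every library of nor-like1 alone.

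The gene with the best hit IQM1 (Solyc08g062930.3), a protein of a family with an IQ motif, the stretch that binds calmodulin, measured 7.38, 7.68 and 5.11 CPM in nor-like1 and 0.581, 0.354 and 0.304 CPM in WT. WT held 19 counts in all and nor-like1 203, and each nor-like1 library was far above each WT library. This gene passed the count cutoff in every library of nor-like1 alone. The log2 fold change was 3.98 (SE 0.339, adjusted p = 0.00174). The gene described as calmodulin-binding protein 25-like (Solyc10g077130.1), after an Arabidopsis protein of the response to osmotic stress, measured 25.6, 27.3 and 31.4 CPM in nor-like1 and 7.50, 7.43 and 9.84 CPM in WT. Its log2 fold change was 1.76 (SE 0.158, adjusted p = 0.00194). Both were called in all 16 alternative fits.

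The remaining large rises were in genes whose best hits are uncharacterized proteins, and nor-like1 library 1 was the lowest of its group in each. Solyc12g008960.2 measured 42.2, 87.6 and 100 CPM in nor-like1 and 18.5, 17.3 and 24.7 CPM in WT. Solyc01g005800.3 measured 6.93, 21.3 and 19.8 CPM in nor-like1 and 3.95, 2.21 and 3.28 CPM in WT. Solyc03g113980.3 measured 30.9, 60.2 and 57.9 CPM in nor-like1 and 19.5, 16.5 and 26.7 CPM in WT. In all 3 genes even the lowest nor-like1 library was above WT, and the log2 fold changes were 1.92 (SE 0.342), 2.32 (SE 0.464) and 1.24 (SE 0.301), with adjusted p of 0.0142, 0.0191 and 0.0325. All 3 calls were lost without WT library 2 (adjusted p = 0.0651, 0.0783 and 0.111) and without nor-like1 library 2 (0.0545, 0.0640 and 0.106). Those of Solyc01g005800.3 and Solyc03g113980.3 were also lost without nor-like1 library 3 (0.0611 and 0.0975) and without WT library 1 (0.0512 and 0.0984).

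Calmodulin-binding transcription activators (CAMTA, also called SR in tomato) bind DNA and are regulated by calmodulin. Of 7 listed, 5 were tested and 1 was called, where 21.9% of all genes tested were called. CAMTA 5 (Solyc01g060140.4, best hit SR3) measured 442, 378 and 372 CPM in nor-like1 and 186, 223 and 271 CPM in WT, with no overlap and a log2 fold change of 0.81 (adjusted p = 0.0162, SE 0.163). Its call was lost without WT library 1 (adjusted p = 0.0522) or WT library 2 (0.0702). At a mean of 89.0 FPKM it was the most abundant called member. The other 4 were not called, and CAMTA 4 (Solyc12g035520.3), named after its values were seen, had nor-like1 libraries all below WT with a log2 fold change of -0.32 (adjusted p = 0.0581). DESeq2 called it lower (adjusted p = 0.0377).

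The only member that fell was Solyc10g079790.1, described as a plant calmodulin-binding-like protein. It measured 8.20, 9.82 and 9.74 CPM in nor-like1 and 14.0, 14.3 and 17.7 CPM in WT. All nor-like1 libraries were below WT, and the log2 fold change was -0.73 (SE 0.154, adjusted p = 0.0188). The call was lost without nor-like1 library 2 or 3 (adjusted p = 0.0576 and 0.0559) or WT library 2 (0.0581).

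A further 3 calmodulin-binding genes rose and are named here after their values were seen. Solyc09g009770.3, of the calmodulin-binding family, measured 59.2, 67.0 and 62.2 CPM in nor-like1 and 32.5, 34.6 and 39.3 CPM in WT. Its log2 fold change was 0.82 (SE 0.111, adjusted p = 0.00533), and it was called in all 16 alternative fits. Solyc10g083360.2, of the same family, gave 1.07 (SE 0.253, adjusted p = 0.0269), and its call was lost without nor-like1 library 2 or 3 (adjusted p = 0.0957 and 0.0733) or WT library 1 or 2 (0.0859 and 0.0985). The receptor-like kinase CRCK2 (Solyc10g012170.3) gave 0.81 (SE 0.229, adjusted p = 0.0450). Of the 6 fits without 1 library only that without WT library 3 called it (adjusted p = 0.00524), with values between 0.0530 and 0.144 in the others.

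The most abundant calmodulin-binding gene (Solyc03g119250.5) was not called. It measured 57.2, 205 and 223 FPKM in nor-like1 and 115, 72.9 and 85.5 FPKM in WT, so nor-like1 library 1 was below all WT libraries and the other nor-like1 libraries were above them. The log2 fold change was 0.85 (SE 0.502, adjusted p = 0.266). Without nor-like1 library 1 it was 1.26 (adjusted p = 0.0108), and without nor-like1 library 3 it was 0.56.

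Other calcium-binding genes had no call among 28 tested (edgeR quasi-likelihood). Their median log2 fold change was 0.42, but 0.25 over the 24 that passed the count cutoff in every library of both genotypes. At an unadjusted p below 0.05, 5 of the 28 were higher and 3 lower, 28.6% together against 37.9% of all genes. DESeq2, which called 11.1% of all genes higher and 10.8% lower, called 1 higher and 1 lower. The higher one was described as calcium-binding allergen Ole e 8 (Solyc03g118810.1) and the lower one as an EF-hand protein (Solyc02g082540.4). The most abundant, an EF-hand protein (Solyc01g111040.4), measured 286, 149 and 150 FPKM in nor-like1 and 271, 270 and 193 FPKM in WT. Library 1 was the highest of nor-like1 and library 3 the lowest of WT, and the groups overlapped. The log2 fold change was -0.31 (SE 0.295, adjusted p = 0.475), and -0.69 (adjusted p = 0.0467) without nor-like1 library 1.

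PBP1, known in Arabidopsis as a calcium-binding partner of the kinase PINOID in auxin transport, was the description of 5 genes. The 4 tested had log2 fold changes between 0.54 and 1.16, and none was called, the smallest adjusted p being 0.0768. Solyc07g053050.1 was called higher in all 3 limma fits on FPKM (adjusted p = 0.0312 to 0.0434) and by edgeR without WT library 1 (0.0431), and Solyc10g006740.4 without WT library 3 (0.0437). The most abundant (Solyc10g006700.1) measured 121, 201 and 276 FPKM in nor-like1 and 179, 70.3 and 60.5 FPKM in WT. Its neighbour (Solyc10g006660.3), with no protein-coding gene between them in RefSeq, measured 50.8, 80.0 and 98.2 FPKM in nor-like1 and 87.4, 35.9 and 33.7 FPKM in WT. In both genes WT library 1 was above nor-like1 library 1 and far from the other WT libraries. For Solyc10g006700.1 the log2 fold change was 0.88 (SE 0.536, adjusted p = 0.280) and 1.63 without WT library 1 (adjusted p = 0.0550), against 0.58 without nor-like1 library 3 and 0.57 without WT library 3.

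**Figure D5:**
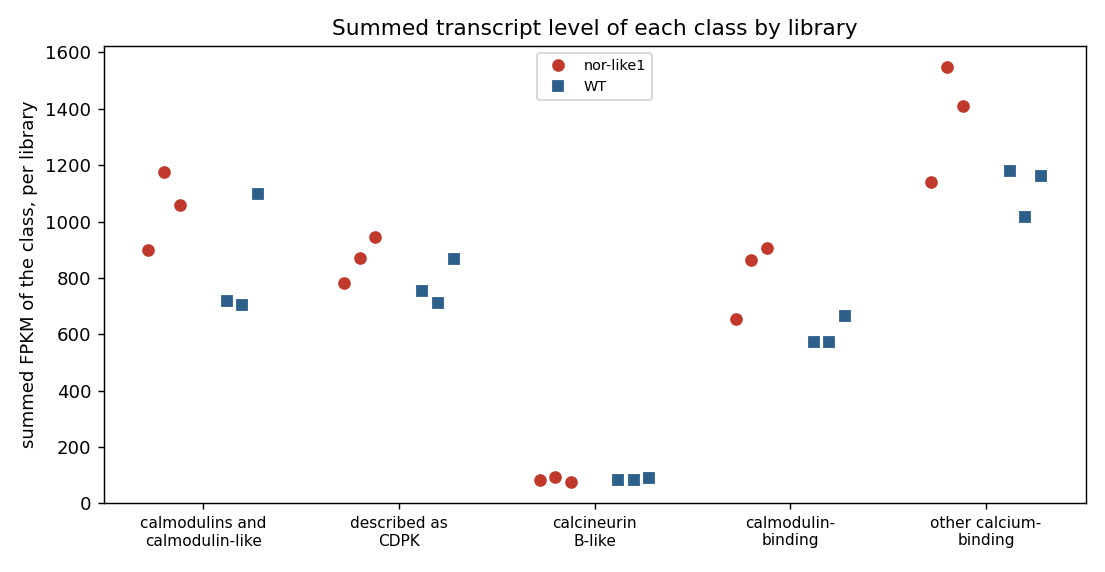
Summed FPKM of all members of a class is shown for each library, nor-like1 as red circles left of WT as blue squares. In the calmodulin class WT library 3 (1097 FPKM) lies among the nor-like1 libraries (899 to 1176), and the calcineurin B-like class has the lowest sums (76.4 to 92.8 in nor-like1, 82.1 to 89.3 in WT).

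Summed over a class, levels were higher on average in nor-like1 in 4 of the 5 classes, and the genotypes overlapped in all 5. These sums are given as a description, with no test. Calmodulins and calmodulin-like genes summed to 899, 1176 and 1058 FPKM in nor-like1 and 717, 705 and 1097 FPKM in WT. Genes described as CDPK summed to 781, 870 and 946 FPKM in nor-like1 and 754, 712 and 868 FPKM in WT. In both classes WT library 3 was the only WT library within the nor-like1 range. Calmodulin-binding genes summed to 656, 864 and 906 FPKM in nor-like1 and 572, 573 and 664 FPKM in WT, with nor-like1 library 1 just below WT library 3. The other calcium-binding genes summed to 1139, 1549 and 1410 FPKM in nor-like1 and 1180, 1017 and 1161 FPKM in WT, also with overlap. In such bulk samples fewer cells of a type and less RNA per cell cannot be told apart.

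Annotation terms divided the members in another way. The gene ontology term for calcium ion binding was attached to 81 members, of which 62 were tested and 6 were higher, none lower (9.68%, all genes 10.5% higher and 11.4% lower). The 63 members without it had 39 tested, 9 higher and 1 lower (25.6%, all genes 21.9%). None of the 43 calmodulin-binding genes carried it. The pathway term for plant-pathogen interaction covered 63 members, with 45 tested, 5 higher and 0 lower (11.1%), while all 466 genes of that term had 312 tested, 28 higher and 28 lower (17.9%), and 21.9% of all genes were called.

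Genes that let calcium into the cytosol or remove it, and other genes of calcium signalling, were also counted. A list of 74 such genes by description had 55 tested, 5 higher and 5 lower, and a median log2 fold change of 0.26. The share called, 18.2%, was near the 21.9% of all genes, and the 9.09% in each direction near the 10.5% higher and 11.4% lower. By family, 3 of 11 tested glutamate receptor genes, which form cation channels, rose and none fell, but 2 of the 3 (Solyc06g063190.3 and Solyc02g077290.2) passed the count cutoff in every library of nor-like1 alone. Of 11 cyclic nucleotide-gated channels 2 fell, of 14 calcium ATPases, which pump calcium out of the cytosol, 1 rose, and of 4 cation exchangers none was called. Of 3 mitochondrial calcium uniporters tested 1 fell, of 6 annexins 1 fell, and of 3 respiratory burst oxidases 1 rose. The log2 fold changes ran from -2.34 to 1.49 over the 6 annexins, 3 of them above 0. Over the 3 uniporters they ran from -0.88 to 1.53. The oxidase that rose also passed the cutoff in full only in nor-like1, and the annexin that fell only in WT. Of the 47 genes of the list that passed in both genotypes, 2 were higher and 4 lower. The tenth call, a copper chaperone that fell, had been matched by its accession letters and is no calcium signalling gene; 1 further gene, not called, was matched in the same way.

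Annexin 9 (Solyc10g047240.2), of a family that binds membranes in the presence of calcium, measured 1.19, 0.778 and 2.38 CPM in nor-like1 and 8.60, 6.99 and 6.02 CPM in WT. Glutamate receptor-like 2.3 (Solyc06g063190.3) measured 1.82, 4.48 and 4.87 CPM in nor-like1 and 0.407, 0.531 and 0.608 CPM in WT. Neither had overlapping groups, and the log2 fold changes were -2.34 (SE 0.384, adjusted p = 0.00881) and 2.83 (SE 0.465, adjusted p = 0.00889), both called in every fit that left out 1 library. A cyclic nucleotide-gated channel (Solyc02g086990.4) measured 18.1, 15.9 and 14.96 CPM in nor-like1 and 38.6, 28.9 and 24.3 CPM in WT. A respiratory burst oxidase with homolog D as best hit (Solyc06g068680.3), of the enzymes that make superoxide at the cell surface and carry EF hands, measured 2.28, 2.14 and 2.14 CPM in nor-like1 and 0.814, 0.974 and 0.729 CPM in WT. Their groups did not overlap either, and the log2 fold changes were -0.91 (SE 0.187, adjusted p = 0.0175) and 1.38 (SE 0.288, adjusted p = 0.0179). Both calls were lost without nor-like1 library 2 (adjusted p = 0.0686 and 0.0656), nor-like1 library 3 (0.0650 and 0.0572) or WT library 2 (0.0581 and 0.0599), and that of the oxidase also without WT library 1 (0.0706).

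The authors' deposited table, a DESeq2 comparison, lists 143 of the members. It marks 10 of them as up and 0 as down, where all genes so marked have at least a 2-fold change and an adjusted p below 0.05. Over its 21668 genes the authors' deposited table marks 1066 up and 437 down (6.94% in either direction). With no limit on the fold change, 21 of the 143 members and 3893 of the 21668 genes have an adjusted p below 0.05 there. Lower among these members are Solyc12g035520.3, Solyc02g082540.4 and Solyc10g079790.1. Of the 10 marked up, Solyc12g036390.2, Solyc02g088090.1 and Solyc03g118810.1 were not called by edgeR here.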

How the data were processed

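RNA was sequenced from the exocarp of 3 nor-like1 and 3 WT libraries at stage MG, from Trizol-extracted total RNA with MGI libraries, per the labels' protocols. The authors deposited a table per library with expected counts and FPKM per gene, per the file headers, which lists only genes above 0; a gene listed elsewhere was set to 0. The submitters' processing notes list 4 tools, HISAT2, StringTie, Bowtie2 and RSEM, and no version; the genome build, annotation and use of strand were not given in the sources used here, so no coordinates are printed. Estimated in this way, the counts of near-identical gene copies may share reads. A further table by the authors holds log2 fold changes and p-values from DESeq2, per the file headers; its group levels, on a scale not given, were not used.

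Expected counts were rounded and tested over all 16380 genes passing filterByExpr (minimum count 10) with edgeR 4.0.16 in R 4.3.3 (TMM, robust quasi-likelihood fit, genotype only; Benjamini-Hochberg over all genes tested, threshold 0.05). SE is the absolute log2 fold change over the square root of F. CPM uses TMM-scaled library sizes. FPKM, as deposited, was used to compare levels between genes. Alternatives were DESeq2 1.42.0, limma 3.58.1 on log2(FPKM + 1 or 0.1), other scalings and filters, thinning, a replicate block and each library left out. The procedure was tested on simulated data. No pair of libraries of a genotype agreed within sampling noise (chi-square per gene 10.5 to 47.0).

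Members, classes, lists and the naming rule were chosen with earlier results of these data known. The rule names, per class, every called member where at most 8 were called and otherwise the 5 largest rises and falls with a mean of at least 1 CPM, the 2 most abundant members, and 4 genes of the wider list with the smallest adjusted p. RefSeq (assembly SLM_r2.1) held the best hit of 111 of the 144 members and gave symbols and neighbours.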

Additional observations from a re-analysis of the deposited data

How the results depend on the processing

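Members by description were called higher more often than lower under every alternative run, with 13 to 19 higher and 1 to 4 lower when all libraries were kept. Of the 15 higher members, 13 to 15 were called again in those fits. With each library left out in turn, 7 to 26 members were higher and 0 to 4 lower, and 7 to 15 of the 15 were called again. By class these fits gave 3 to 6 higher calmodulins and calmodulin-like genes, 0 to 5 higher and 0 to 1 lower genes described as CDPK, 0 to 1 higher calcineurin B-like genes, 3 to 10 higher and 0 to 2 lower calmodulin-binding genes, and 0 to 4 higher and 0 to 2 lower other calcium-binding genes. The wider list gave 1 to 10 higher and 1 to 5 lower, and all tested genes 596 to 2352 higher and 543 to 2390 lower. The cause was not tested.

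The count of lower members was 4 with DESeq2, 2 with no filter, with each of the 3 limma fits and with thinned counts, 6 with genes matched by best hit added, and 0 without the calmodulin-binding class, where 6 were higher. DESeq2 called 1 CDPK gene and 2 calmodulin-binding genes lower, and limma with no filter also called 2 calmodulin-binding genes lower. Other calcium-binding genes had 1 higher with DESeq2 and with limma on log2(FPKM + 0.1), 2 with both limma fits on log2(FPKM + 1), and 1 lower with DESeq2, no filter, limma on log2(FPKM + 1) and on log2(FPKM + 0.1), and thinned counts. The wider list had 2 higher in both filtered limma fits and 3 with limma without a filter, the replicate block and thinned counts, and its lower count was 3 with upper-quartile scaling and thinned counts and 2 with limma without a filter.

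The replicate number used as a block gave 15 higher and 1 lower members, 1364 higher and 1262 lower genes in all; Solyc01g005800.3 and the respiratory burst oxidase Solyc06g068680.3 were not called with it (adjusted p = 0.0516 each). Deviations of same-numbered libraries correlated at 0.25, -0.27 and 0.05, and those of differently numbered libraries at -0.30 to 0.35. Taken from only 3 libraries per genotype, centred on their own mean, these values cannot show whether the numbers pair the libraries. Over 30 named genes and their alternatives, 416 of 474 values kept direction and side of the threshold, 47 lost and 2 gained the call, and 9 changed sign. Calmodulin 2 (Solyc10g081170.2) changed to 0.0666 in the limma fits on log2(FPKM + 1), 0.0672 on log2(FPKM + 0.1), 0.0627 with the replicate block and -0.329 to 0.65 with a library left out, and CBL2 (Solyc07g065820.3) to -0.00806 with thinned counts and -0.0539 to 0.108 with a library left out. Limma on log2(FPKM + 1) shrank low genes by construction, with 1.59 for the CML8-like gene, 1.81 for IQM1 and 1.38 for Solyc06g051970.3. No scaling moved the median of all genes beyond 0.03. Depth limits members near 0.353 CPM, the level of 3 counts in the shallowest library.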
